A study of Rattus norvegicus with 12 samples.

Results

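The regions described here had the histone mark H3K23ac in the SIANK libraries alone, at places where NC libraries had H3K27ac. They were chosen from 12 CUT&Tag peak lists of primary rat vascular smooth muscle cells, the contractile cells of the arterial wall. Peaks of all 12 lists were merged wherever they shared 1 bp or more, which gave 23333 regions. A region was kept if it held an H3K23ac peak of each SIANK library, none of an NC library, and an H3K27ac peak of at least 1 NC library. The rule kept 816 regions, called premarked gains below, where a gain means a peak listed in each SIANK and no NC library, not a change followed over time. Because those peak calls chose the regions, the H3K23ac pattern and every value that draws on the NC H3K27ac peaks are given as descriptions without a test.

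The libraries fall into 2 conditions, labelled NC and SIANK, with 2 libraries of each condition for each of 3 marks. Neither label is spelled out in the labels or the series' text, and nothing there says whether libraries 1 and 2 came from separate cultures or animals. The series concerns aneurysmal aortas, and the labels give no treatment, dose or time beyond these names. The marks are acetylation of lysine 23 on histone H3 (H3K23ac), of lysine 27 on histone H3 (H3K27ac) and of lysine 5 on histone H4 (H4K5ac). Any test over libraries measures only the spread between them, which may be technical.

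Acetylation of a lysine on a histone tail removes its positive charge, and acetylated nucleosomes are read by bromodomain proteins that help to open and transcribe chromatin. H3K27ac is laid down mainly by the acetyltransferases CBP and p300 and is a common mark of active enhancers and promoters. H3K23ac is a less studied mark of the same histone tail, and H4K5ac is found at active and newly assembled chromatin. In CUT&Tag an antibody to a mark tethers a transposase that cuts and tags the DNA beside it, so that a peak is a stretch where tagged fragments pile up.

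Each list gives the position and length of its peaks and nothing of their height. A region therefore either has or lacks a peak of a library, and the depth behind a missing peak is unknown. The lists differed in size: those of H3K23ac held from 10720 peaks (NC 2) to 17141 (SIANK 2), those of H3K27ac from 2644 (NC 1) to 15413 (SIANK 2), and those of H4K5ac from 100 (NC 1) to 1711 (SIANK 2). The genome build is not given in the sources used here. Of 94690 peaks, 2696 on 15 chromosomes lay beyond the last gene of the GRCr8 annotation, so that annotation was not used, and regions are named by position only, without genes or sequence.

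In all, 1554 of the 23333 merged regions (6.66%) met the H3K23ac part of this rule, and 816 of these (52.5%, exact 95% binomial interval 49.99 to 55.02) had H3K27ac in an NC library. NC H3K27ac was found at 58.2% of all merged regions and at 61% of the regions with H3K23ac in any library. By the number of libraries with H3K23ac, it was present at 31.6% of regions with 0, 17.5% with 1, 55.9% with 2, 82.4% with 3 and 98.3% with 4. The share at gained regions thus lay somewhat below that of all regions with H3K23ac in 2 libraries, a set that includes the gained regions. It lay above the shares with fewer libraries and below those with more. Read the other way, gains made up 6.01% of the 13570 regions with NC H3K27ac and 7.56% of the 9763 regions without it. Among regions with H3K23ac in exactly 2 libraries, gains made up 42.6% of the 1917 with NC H3K27ac and 48.8% of the 1513 without it. These intervals cover counting error over regions only, and regions are not replicates.

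The other pairings of the 4 H3K23ac libraries gave the regions for comparison, 1101 with NC H3K27ac in all. NC 1 with SIANK 2 gave 582, NC 2 with SIANK 2 gave 429, NC 1 with SIANK 1 gave 50, NC 2 with SIANK 1 gave 32 and NC 1 with NC 2 gave 8. The premarked gains were thus the largest of the 6 sets, and the sets without SIANK 2, the longest list, were all small. Both SIANK lists of H3K23ac (14356 and 17141 peaks) were longer than the NC lists (12909 and 10720). Pairing SIANK 2 with an NC library also gave a higher share with NC H3K27ac, 66.1% (62.3 to 69.7) for NC 2 with SIANK 2 and 61.1% (57.9 to 64.2) for NC 1 with SIANK 2. The share was 28.6% (22.0 to 35.9) for NC 1 with SIANK 1, 40.5% (29.6 to 52.1) for NC 2 with SIANK 1 and 40% (19.1 to 63.9) for NC 1 with NC 2. The count of premarked gains moved with the libraries used. It was 1615 when NC 1 was left out of every mark and 177 without NC 2. It was 1781 without SIANK 1 and 1026 without SIANK 2. The share was then 60.4%, 6.69%, 36.9% and 27%, in the same order. In each case 1 library stood for its condition. H3K23ac was then required in, or barred from, fewer lists, which by itself can only admit more regions. The count fell only without NC 2, whose H3K27ac list was left out too. With each list held to the length of the shortest list of its mark, 48 of 501 gained regions met the rule, beside 207 regions in the other pairings together.

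**Figure D1:**
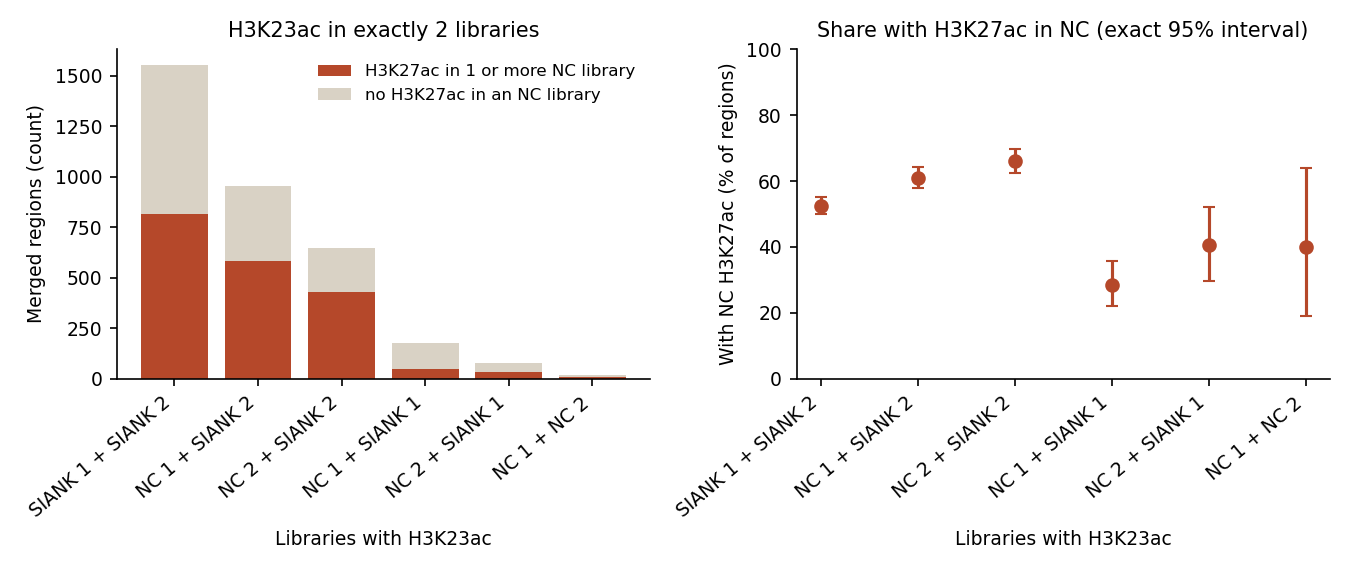
Merged regions with H3K23ac in exactly 2 libraries, by pair of libraries on the x axis: left, the count of regions with (red) and without (grey) H3K27ac in an NC library; right, the percent with NC H3K27ac, with exact 95% binomial intervals. The pair of SIANK libraries has the most regions, 1554, of which 816 carry NC H3K27ac, and its share of 52.5% lies below those of NC 1 with SIANK 2 and NC 2 with SIANK 2.

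The H3K27ac premark came almost entirely from NC library 2. A peak of NC 2 was present at 784 of the 816 regions (96.1%) and a peak of NC 1 at 80 (9.80%), and both libraries had one at 48 (5.88%). Over all regions with NC H3K27ac, a peak of NC 2 was present at 98.2%, of NC 1 at 19.0% and of both at 17.2%. NC 2 thus prevailed there too, while peaks of NC 1 and of both libraries were less frequent at premarked gains. The NC 1 list is the shorter of them by far. The commonest arrangement was H3K27ac in NC 2 and SIANK 2 only, at 510 regions (62.5%), followed by NC 2 alone at 158 (19.4%) and NC 2 with both SIANK libraries at 58 (7.11%). In the other pairings these shares were close, at 61.3%, 19.9% and 7.45%. Over all regions with NC H3K27ac, 55.8% had it in NC 2 and SIANK 2 only. H3K27ac was found in all 4 libraries at 37 regions (4.53%), against 6.27% of the other pairings and 16.3% of all regions with NC H3K27ac. At 13 regions it was found in NC 1 and SIANK 1 only.

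Most premarked gains also had H3K27ac in a SIANK library, chiefly SIANK 2, though less often than all regions with NC H3K27ac did. At least 1 SIANK library had an H3K27ac peak at 655 of the 816 regions (80.3%), both had one at 112 (13.7%), and neither had one at 161 (19.7%). Over all regions with NC H3K27ac, 11.8% lacked it in both SIANK libraries, and in the other pairings 223 of 1101 did (20.3%). By library, H3K27ac was present at 9.80% of premarked gains in NC 1, 96.1% in NC 2, 17.0% in SIANK 1 and 77.0% in SIANK 2. For the other pairings these were 10.3%, 97.3%, 17.3% and 77.5%, and for all regions with NC H3K27ac 19.0%, 98.2%, 31.7% and 86.6%. In both conditions the library numbered 1 had the mark at few premarked gains and the library numbered 2 at most of them.

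Premarked gains and the other pairings had overlapping counting intervals in every H3K27ac library. The percent at premarked gains minus that at the other pairings was −0.459 and −1.20 in NC and −0.223 and −0.514 in SIANK, with means of −0.828 ± 0.521 and −0.368 ± 0.206 (SD, n = 2 each). Both sets were required to have H3K27ac in an NC library, so the SIANK minus NC difference of 0.460 points is given without a test. It was 7.38 points when NC 1 was left out, 8.08 without NC 2, −14.5 without SIANK 1 and −2.33 without SIANK 2. Each of these removals also lets regions with H3K23ac in a single remaining library into the sets compared.

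**Figure D2:**
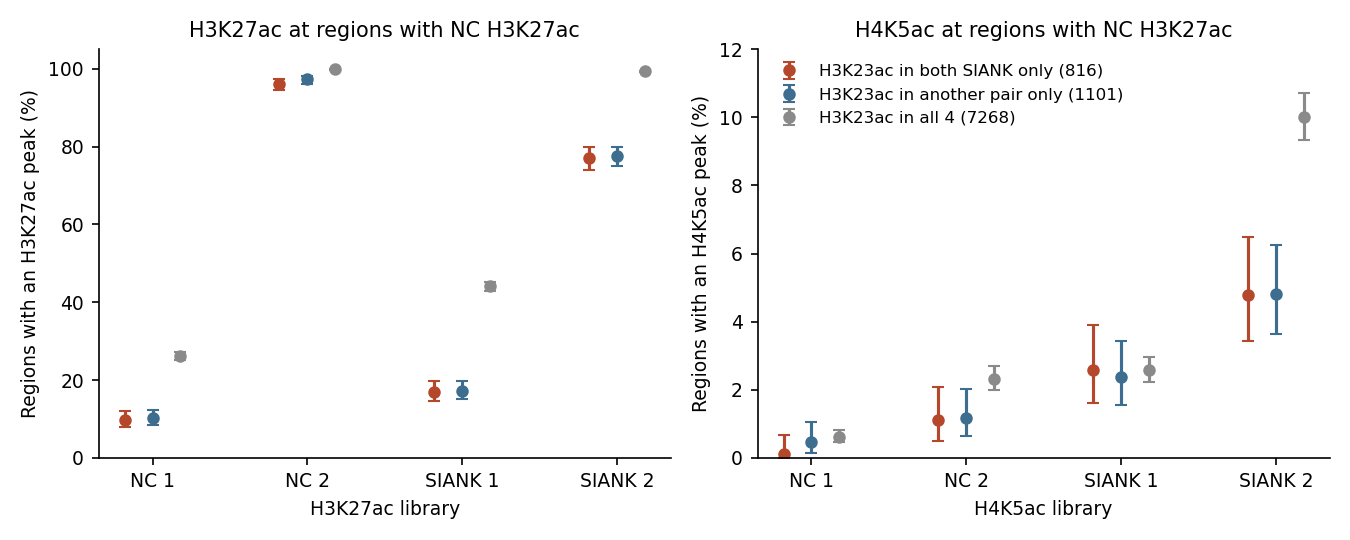
Percent of regions with an H3K27ac peak (left) or an H4K5ac peak (right) in each library, for premarked gains (red), other pairings with NC H3K27ac (blue) and regions with H3K23ac in all 4 libraries and NC H3K27ac (grey), with exact 95% binomial intervals. Red and blue intervals overlap in every library, from 9.80% and 10.3% in H3K27ac NC 1 to 4.78% and 4.81% in H4K5ac SIANK 2, and grey points lie higher for H3K27ac.

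The 7268 regions with H3K23ac in all 4 libraries and NC H3K27ac carried more H3K27ac. SIANK 1 had a peak at 44.0% of them and SIANK 2 at 99.3%, and 0.619% lacked H3K27ac in both. The 1758 regions just outside the rule, with H3K23ac in both SIANK libraries and 1 NC library, lay between: H3K27ac was present in SIANK 2 at 90.8% of them, and 8.08% lacked it in both SIANK libraries. Over these sets with NC H3K27ac and H3K23ac in 2, 3 or 4 libraries, H3K27ac in SIANK 2 was listed least often where H3K23ac was in 2.

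Peaks of H3K27ac at premarked gains were short. Their median length was 560 bp in NC 1 (80 regions), 537 bp in NC 2 (784), 655 bp in SIANK 1 (139) and 612.5 bp in SIANK 2 (628). In the other pairings the medians were 543, 541, 601.5 and 591 bp. At regions with H3K23ac in all 4 libraries they were 652, 1104, 760 and 1171 bp, in the same order, so the median was longer there in every library, most so in the number 2 libraries. Ranked within its own list, the median H3K27ac peak at a premarked gain stood at percentile 43.0 in NC 1, 27.2 in NC 2, 46.8 in SIANK 1 and 35.6 in SIANK 2.

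**Figure D3:**
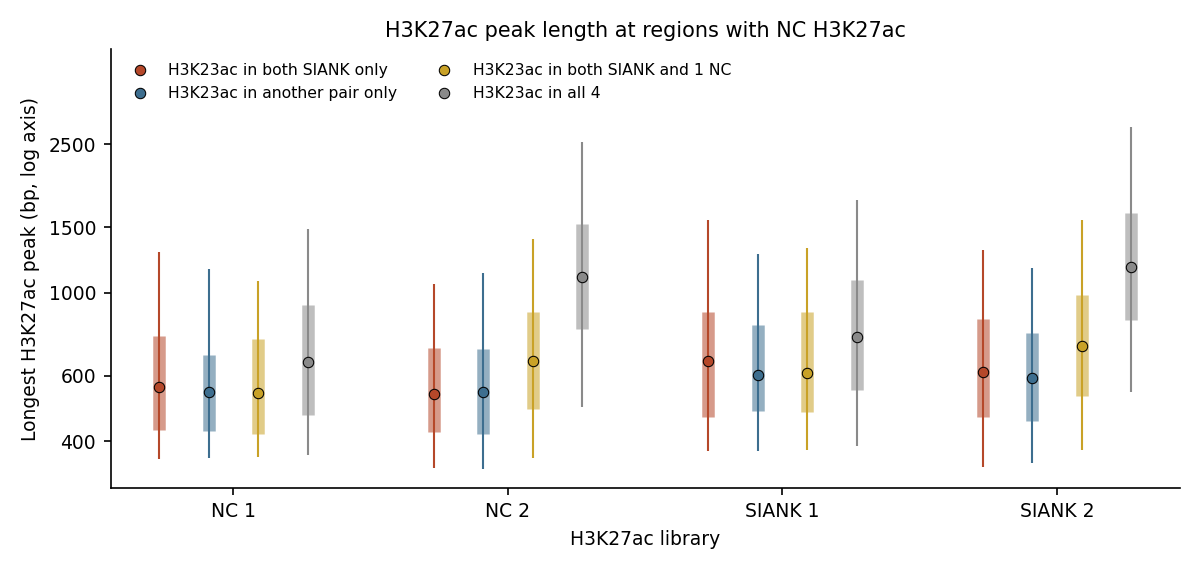
Length of the longest H3K27ac peak per region (bp, log axis) in each H3K27ac library, at regions with NC H3K27ac: points are medians, thick bars the middle 50% and thin lines the 5th to 95th percentile. Medians of premarked gains (red) run from 537 to 655 bp, near those of the other pairings (blue), and those of regions with H3K23ac in all 4 libraries (grey) reach 1171 bp.

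The median percentile at premarked gains was higher than at the other pairings by 2.50 in NC 1, 7.30 in SIANK 1 and 2.22 in SIANK 2, and differed by −0.41 in NC 2. The means of these differences were 1.04 ± 2.05 in NC and 4.76 ± 3.59 in SIANK (SD, n = 2 each). The SIANK minus NC difference was 3.72 percentile points, of the size of the SD in SIANK, and it has no test because the NC peaks measured are those that admitted the regions. It was −1.28, −0.553 and −3.17 without NC 1, NC 2 and SIANK 1, and 11.1 without SIANK 2. Lengths could also be set side by side within a replicate number. At the 71 premarked gains with H3K27ac in both number 1 libraries, the SIANK peak was longer at 59, with a median log2 ratio of 0.41 (middle 50% from 0.09 to 0.67). At the 610 with H3K27ac in both number 2 libraries it was longer at 368, with a median of 0.11 (−0.21 to 0.54). The medians were 0.32 (96 regions) and 0.06 (833 regions) in the other pairings, and 0.36 and 0.06 over all regions with NC H3K27ac. In each of these sets the median SIANK 1 peak of H3K27ac was longer than the NC 1 peak at the same region.

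Merging by shared bases and asking for both peaks in a region nearly fix that the gained H3K23ac peaks lie on the NC H3K27ac peaks, so their overlap is a description. At 784 of the 816 regions (96.1%) the H3K23ac peaks of both SIANK libraries overlapped an NC H3K27ac peak directly. At 31 only 1 of them did, and at 1 the peaks were linked through other peaks alone. The centre of the SIANK 1 peak lay a median of 129 bp from that of the H3K27ac peak, and the centre of the SIANK 2 peak 95.75 bp from it. The median share of the H3K27ac peak covered by H3K23ac was 77.3% in SIANK 1 and 94.999% in SIANK 2. The H3K23ac peak was the longer of the overlapping pair at 409 of 785 regions in SIANK 1 and at 537 of 814 in SIANK 2. In the other pairings both H3K23ac peaks overlapped directly at 98.6% of NC 2 with SIANK 2, 98.1% of NC 1 with SIANK 2, 98% of NC 1 with SIANK 1, 93.75% of NC 2 with SIANK 1 and 100% of the 8 regions of NC 1 with NC 2. Median centre distances ran from 80.5 bp for NC 2 to 197 bp for SIANK 1, both in the 32 regions of NC 2 with SIANK 1, apart from 67.75 bp for NC 2 in the 8 regions of the NC pair.

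**Figure D4:**
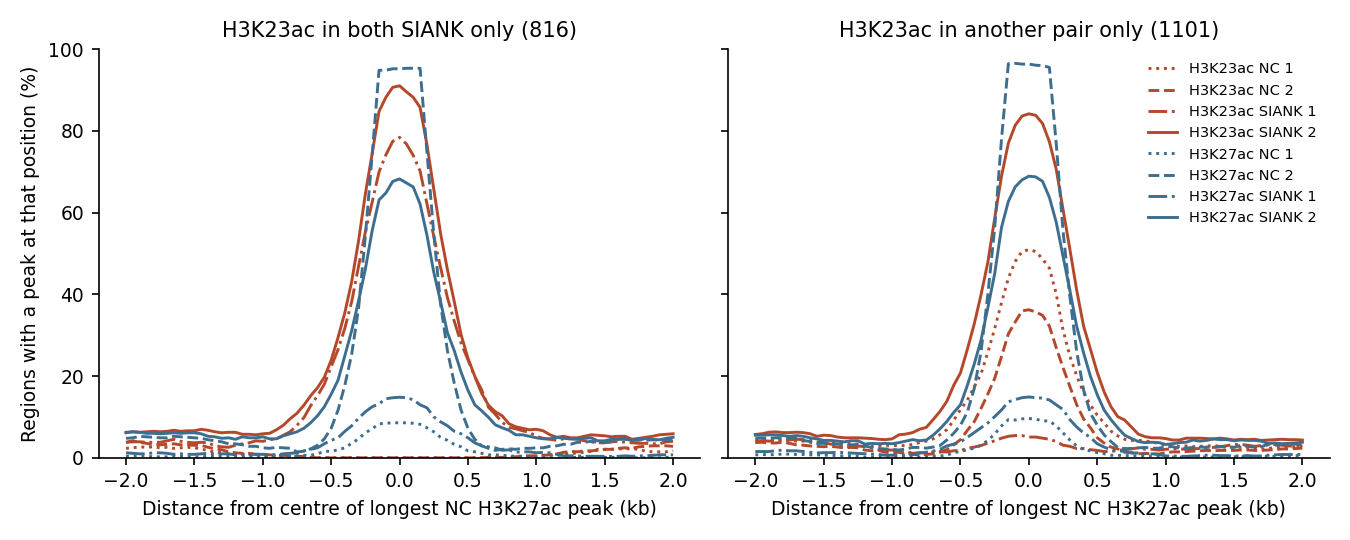
Percent of regions with a peak of each list at each distance (kb) from the centre of the longest NC H3K27ac peak, for premarked gains (left) and other pairings (right); red lines are H3K23ac and blue lines H3K27ac, with a line style per library. At premarked gains H3K23ac is centred on the H3K27ac peak and reaches 78.4% in SIANK 1 and 91.1% in SIANK 2 at the centre, while both NC lines are at 0 there by the rule.

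H3K23ac in SIANK cells was itself of modest length at these regions. In SIANK 1 the peak had a median of 559 bp (5th to 95th percentile of regions 344 to 1223 bp), and in SIANK 2 a median of 646 bp (359 to 1450 bp). The longest were 2179 and 2638 bp. The SIANK 2 peak was the longer at 495 of 816 regions. At regions with H3K23ac in all 4 libraries and NC H3K27ac the medians were 998 and 1310 bp. Within their lists, the median peak at a premarked gain stood at percentile 36.6 in SIANK 1 and 36.2 in SIANK 2, below the 70.7 and 75.4 at those regions. The other pairings had similarly short H3K23ac peaks. Their medians were 519.5 bp in SIANK 1 (82 regions, percentile 31.6) and 649 bp in SIANK 2 (1011 regions, percentile 36.5). Merged premarked gains ran from 368 to 4045 bp with a median of 976.5 bp, and 25 reached 2 kb.

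Premarked gains were also split by their H3K27ac in SIANK. The median SIANK 2 H3K23ac length was 682 bp at the 112 regions with H3K27ac in both SIANK libraries, 677.5 bp at the 516 with it in SIANK 2 only, 586 bp at the 27 with it in SIANK 1 only and 554 bp at the 161 with it in neither. In SIANK 1 the medians of H3K23ac were 563.5, 558.5, 631 and 550 bp in the same order. The H3K27ac peak of NC 2 was also shortest, at a median of 469 bp, where SIANK cells had none. The middle 50% of the SIANK 2 lengths overlapped between these groups (544.75 to 969.75 bp with H3K27ac in both SIANK libraries, 458 to 733 bp with it in neither).

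Close to the edge of the rule, some regions counted as lacking NC H3K23ac lay near an NC peak. The nearest H3K23ac peak of an NC library was 126 bp away at the closest premarked gain, within 500 bp at 15 and within 1 kb at 66, with a median distance of 18080.5 bp. Just outside the rule, the 842 regions that also had H3K23ac in NC 1 had a median NC 1 peak of 563 bp, and the 916 that also had it in NC 2 a median NC 2 peak of 578.5 bp. At the low end of length, the shortest-ranked premarked gain lay on chromosome 10 from 53936150 to 53936781, with H3K23ac peaks of 323 bp in SIANK 1 and 629 bp in SIANK 2.

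H4K5ac was rare at premarked gains and was listed more often in SIANK libraries. Of the 816 regions, 1 had an H4K5ac peak in NC 1 (0.123%), 9 in NC 2 (1.10%), 21 in SIANK 1 (2.57%) and 39 in SIANK 2 (4.78%). The groups did not overlap, with means of 0.613 ± 0.693% in NC and 3.68 ± 1.56% in SIANK (SD, n = 2 each). Nor did they over all regions with NC H3K27ac, at 0.457% and 1.78% in NC and 2.08% and 7.61% in SIANK. Over all merged regions the shares were 0.420% and 1.57% in NC and 1.99% and 7.27% in SIANK, so this separation was not particular to premarked gains. At premarked gains, the SIANK minus NC difference of 3.06 percentage points gave an exact permutation p of 0.333 (two-sided). This design cannot go below 0.333, so no test within a mark could pass 0.05. The difference was 2.20, 1.98, 3.57 and 1.36 points without NC 1, NC 2, SIANK 1 and SIANK 2. The size of the H4K5ac lists moved with this count. As a percent of each library's own H4K5ac regions, premarked gains made up 1.02%, 2.45%, 4.52% and 2.30%, and by this measure the groups overlapped. The part of list size in the result was not tested further.

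H4K5ac at premarked gains was not shown to differ from that at the other pairings, which carried it at 0.454% and 1.18% in NC and at 2.36% and 4.81% in SIANK. The premarked gains minus the other pairings came to −0.332 and −0.0778 points in NC and 0.212 and −0.0344 in SIANK, a SIANK minus NC difference of 0.294 points (exact two-sided permutation p = 0.333). Without NC 2 and without SIANK 1 it turned to −0.654 and −0.752. In any library, 44 premarked gains (5.39%) had H4K5ac against 5.18% of the other pairings, 8.08% of all regions with NC H3K27ac, 7.86% of all merged regions and 10.6% of those with H3K23ac in all 4 libraries. An H4K5ac gain by the same kind of rule (each SIANK library, no NC library) occurred at 10 premarked gains (1.23%), against 0.899% of all regions with NC H3K27ac and 1.18% of the other pairings. In 34 premarked gains (4.17%) H4K5ac was found in SIANK and not in NC, and in 1 it was the reverse. The share in SIANK and not in NC was 4.00% in the other pairings (44 regions, with 2 the reverse), 6.22% of all regions with NC H3K27ac (844, with 33 the reverse) and 6.19% of all merged regions (1445, with 72 the reverse), so the count leaned to SIANK in each of these sets.

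Single regions show the forms these gains took. By peak length, the top region lay on chromosome 20 from 7923714 to 7926029. Its H3K23ac peaks of 2179 and 2316 bp in SIANK 1 and 2 lay with H3K27ac peaks of 503 bp in NC 2 and 560 bp in SIANK 2. The next, on chromosome 6 from 127358407 to 127360504, had H3K23ac peaks of 1877 and 2098 bp on H3K27ac peaks of 568 bp in NC 1, 1899 bp in NC 2 and 1697 bp in SIANK 2. It also had an H4K5ac peak of 606 bp in SIANK 2. The third lay on chromosome 5 from 172618698 to 172621466, with H3K23ac of 1738 and 2638 bp, and an NC H3K23ac peak was 981 bp away. The fourth was on the same chromosome. There, from 142405913 to 142407519, H3K23ac of 1560 and 1572 bp spread over an H3K27ac peak that was 382 bp in NC 2 and 903 bp in SIANK 2. The fifth, on chromosome 7 from 60151678 to 60153395, had H3K23ac of 1596 and 1557 bp on H3K27ac of 615 bp in NC 2 and 884 bp in SIANK 2. In 4 of these 5 regions H3K27ac was listed in the number 2 libraries only. Being ranked by H3K23ac length, these regions do not show how the lengths of the marks compare at premarked gains in general.

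At 48 regions both NC libraries had the premark, and 37 of these had H3K27ac in all 4 libraries. The top one of the 37, on chromosome 14 from 36553687 to 36554989, had H3K23ac peaks of 1234 and 1262 bp in SIANK, on H3K27ac peaks of 482 bp (NC 1), 1081 bp (NC 2), 687 bp (SIANK 1) and 803 bp (SIANK 2). On chromosome 2 from 206452854 to 206454159, H3K23ac measured 902 and 1196 bp, and H3K27ac 977, 426, 1108 and 765 bp in the same order of libraries. On chromosome 17 from 30965260 to 30967299, H3K23ac of 882 and 1642 bp lay on H3K27ac of 345, 1742, 2002 and 1139 bp. In these 3 the SIANK peak of H3K27ac was longer within number 1 in each, and within number 2 on chromosome 2 only. The fourth by rank lay on chromosome 5 from 63055416 to 63056717, with H3K27ac of 555, 852, 1296 and 866 bp. The fifth lay on chromosome 13 from 41882483 to 41883704, with 619, 381, 934 and 724 bp. Both had the longer H3K27ac peak in SIANK in both numbers. The region on chromosome 5 from 116492211 to 116494863 had the shorter H3K27ac peak in SIANK in both numbers, and so differed from those 3 in number 1. It was merged from 9 peaks, and its longest H3K27ac peak measured 1609 (NC 1), 1462 (NC 2), 576 (SIANK 1) and 509 bp (SIANK 2), while its longest H3K23ac peaks in SIANK were 670 and 915 bp. Single regions carry no test.

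At 161 regions H3K23ac was listed in SIANK where H3K27ac was listed in NC and in neither SIANK library. The top one, on chromosome 13 from 72789464 to 72790744, had H3K27ac of 906 bp in NC 2 and H3K23ac of 966 and 1281 bp in SIANK. On chromosome X from 29561606 to 29562841, H3K27ac of 1043 bp in NC 2 lay with H3K23ac of 972 and 1108 bp in SIANK. On chromosome 1 from 266865875 to 266867607 the values were 1156 bp for H3K27ac and 1733 and 1088 bp for H3K23ac. In all 6 regions named by rank in this group the only H3K27ac peak came from NC 2. Over the 161, NC 2 alone had it at 158, both NC libraries at 2 and NC 1 alone at 1, so that at 2 of them the H3K27ac peak was listed in each NC library while no SIANK library had one.

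H4K5ac was present in 2 or more libraries at 19 premarked gains (2.33%). The share was similar in the other pairings (2.18%), all regions with NC H3K27ac (2.52%) and all merged regions (2.28%). The region on chromosome 7 from 103222353 to 103223409 had H4K5ac of 392 bp in NC 2 and 789 bp in SIANK 2, with H3K23ac of 744 and 1057 bp in SIANK and H3K27ac of 1007 bp in NC 2 and 620 bp in SIANK 2. On chromosome 1 from 141569967 to 141570994, H4K5ac was listed only in SIANK, at 337 and 782 bp, beside H3K23ac of 818 and 886 bp. On chromosome 13 from 50167878 to 50168942, H4K5ac of 519 and 840 bp in SIANK lay beside H3K23ac of 887 and 814 bp. At the last of these, H3K27ac was 514 bp in NC 2 and 700 bp in SIANK 2. At these last 2, unlike the first, both H3K23ac and H4K5ac were listed in SIANK libraries alone.

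For comparison, the top region of NC 1 with SIANK 2 lay on chromosome 2 from 210872136 to 210874332. It had H3K23ac of 1728 bp in NC 1 and 2164 bp in SIANK 2, and H3K27ac in all 4 libraries (1655, 2097, 1935 and 427 bp). The top region of NC 2 with SIANK 2, on chromosome 2 from 172440912 to 172442559, had H3K23ac of 1095 and 1319 bp and H3K27ac of 683 bp in NC 2 and 1265 bp in SIANK 2. H3K23ac peaks near 2 kb were thus also listed in a pair that mixes the conditions. The top region of the pair of NC libraries, on chromosome 7 from 35886119 to 35886989, had H3K23ac of 483 and 559 bp in NC and H4K5ac of 524 and 808 bp in SIANK.

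Along the genome, the nearest other premarked gain lay a median of 512135 bp away, and 693 of the 816 had none within 50 kb. The remaining 123 (15.1%) formed 51 pairs and 7 runs of 3. A premarked gain lay within 50 kb of 11.97% of all regions with NC H3K27ac, 11.4% of the other pairings as a whole and 17.5% of NC 2 with SIANK 2. The shortest 3 of the 7 runs are given here. One, on chromosome 10 from 109425724 to 109445088, spanned 19365 bp and had H3K27ac in SIANK 2 at all 3. Another, on chromosome 19 from 25880133 to 25900062, spanned 19930 bp and held 7 merged regions in all, with H3K27ac in NC 1 at 2 of its 3 premarked gains. The run on chromosome 6 from 102779411 to 102803935 spanned 24525 bp, and no region in it had H3K23ac in all 4 libraries. The nearest merged region of any mark was a median of 7484.5 bp away against 8527 bp for the other pairings, and the nearest region with H3K23ac in all 4 libraries 37065 bp against 34181 bp.

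By chromosome, premarked gains made up from 2.58% of the regions with NC H3K27ac on chromosome 16 (10 of 387, exact 95% interval 1.25 to 4.70) to 9.73% on chromosome 18 (39 of 401, 7.01 to 13.1), leaving out chromosome Y with its single region. Chromosome 4 followed with 8.42% (71 of 843, 6.64 to 10.5). On chromosomes 3 and 10 the percent was 4.35 and 4.39, with upper limits of 5.80 and 5.74 below the 6.01% of all chromosomes. Among regions with H3K23ac in exactly 2 libraries and NC H3K27ac, premarked gains were 61.9% on chromosome 18 (48.8 to 73.9) and 27.8% on chromosome 16 (14.2 to 45.2), against 42.6% overall. The rule used this contrast, so these shares are a description of where the regions lie.

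**Figure D5:**
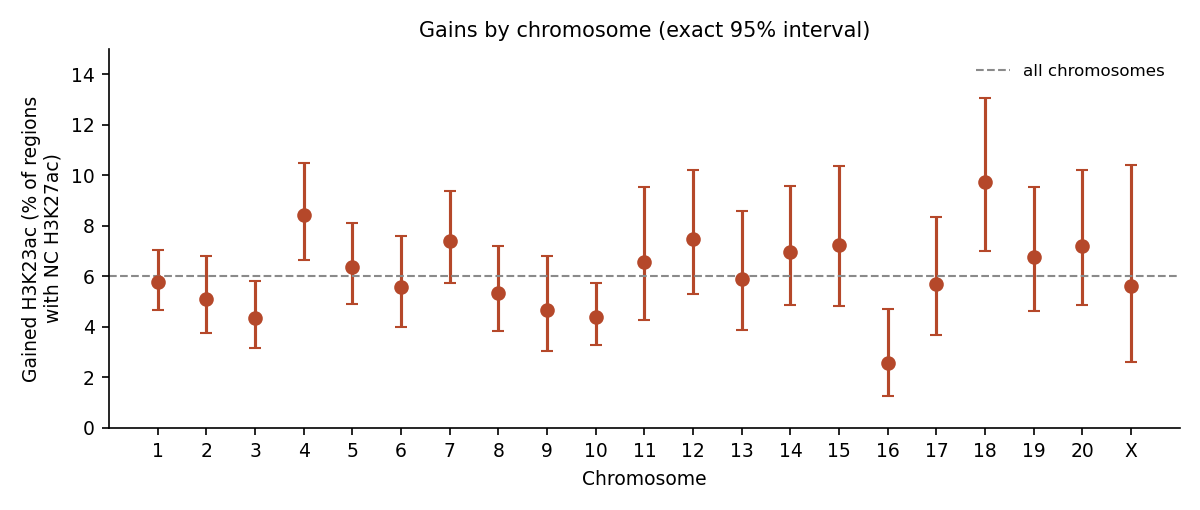
Premarked gains as a percent of the regions with NC H3K27ac on each chromosome (x axis; chromosome Y, with 1 region, is left out), with exact 95% binomial intervals; the dashed line is the value over all chromosomes, 6.01%. Chromosomes 18 and 4 lie above the line with their whole interval, and chromosomes 3, 10 and 16 below it.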

How the data were processed

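CUT&Tag libraries of 3 marks from primary rat vascular smooth muscle cells were used, with groups and replicate numbers from the sample titles. The authors deposited 1 peak list per library which, per the file headers, gives the chromosome, start, end and length in bp of each peak. Positions count from 1, and there are no read counts, scores or p-values. BWA and deepTools are named in the submitters' processing notes without versions. The program, threshold and control used to call peaks, and the build, are not stated in the labels or headers used here. IgG libraries were not analysed here. A list's length can move with depth, background and threshold, and so can a missing peak.

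Regions were merged at 1 bp or more and checked against bedtools 2.31.1. Where a library had several peaks in a region, the longest was used. Length percentiles are ranks within a list. Libraries were compared by permuting the condition labels exactly, two-sided (6 arrangements, threshold 0.05). The planned tests on H3K27ac are given as differences only, since its NC peaks chose the regions. Shares have exact (Clopper-Pearson) 95% binomial intervals. Counting was tested on simulated data. Named regions are the top ones by the lower of their H3K23ac length percentiles in the SIANK libraries: 8 with H3K27ac in all 4 libraries, 6 with it in no SIANK library, 6 with H4K5ac in 2 or more libraries, 5 over all premarked gains, the 3 runs with most regions (gaps up to 50 kb, ties by shorter span), and the top region of each other pairing. Regions, lists and tests were chosen with earlier results of these data known. The share of each library's own H4K5ac regions was added after seeing the data, and the region at the low end of length was named after its values were seen. Scripts ran in Python 3.11.15 with scipy 1.17.1, numpy 2.4.6 and pandas 2.3.3, and figures were drawn with matplotlib 3.10.9.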

Additional observations from a re-analysis of the deposited data

How the results depend on the processing

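Merging within 1000 bp and asking for direct overlap of the H3K23ac and NC H3K27ac peaks kept every direction, and the number of premarked gains was then 767 and 784. With the upper 50% of each list by length it was 401. With lists of equal length within a mark it was 48, and the share of gained regions with NC H3K27ac was 9.58%. Both H4K5ac differences were then 0 (lists of 100 H4K5ac peaks, none of them on the 48 regions), and the H3K27ac length difference turned to −1.58. Asking peaks to cover 50% or more of a region gave a share of 49.0% and turned the H3K27ac difference to −0.830 points. The cause was not tested. Leaving out each library number in turn, with 1 library standing for its condition, the count ran from 177 to 1781, the share from 6.69% to 60.4%, the H4K5ac difference at premarked gains from 1.36 to 3.57 points, that against the other pairings from −0.752 to 0.459, the H3K27ac difference from −14.5 to 8.08 and the H3K27ac length difference from −3.17 to 11.1. With a block by replicate number (a replicate block) the H4K5ac differences of 3.06 and 0.294 points had exact permutation p = 0.5, the smallest that design allows. Whether libraries of the same number share more than that label is not stated. As a percent of each library's own H4K5ac regions, an alternative added after seeing the data, the H4K5ac differences were 1.67 and 1.64 points. Of the 34 named premarked gains, 26 still met the rule with merging within 1000 bp, 33 with direct overlap, 19 with 50% coverage, 13 with the upper 50% and 11 with equal lists. Without NC 2, 11 of the 34 did, and without another library 33 or 34. The depth of the libraries is unknown, so a missing peak cannot be told from one under the threshold.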
